A study of Mus musculus with 2 samples.

Results

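The insulin-like growth factor (IGF) genes described here comprise 2 ligands, 2 receptors and 6 binding proteins, looked up by mouse symbol from the NCBI gene number of each row. Of these 10 genes, 9 were found among the 17215 genes listed in both tables: Igf1, Igf2, Igf1r, Igf2r, Igfbp2, Igfbp4, Igfbp5, Igfbp6 and Igfbp7. Igfbp3 was not analysed here. The cells were MC3T3-E1, a clonal pre-osteoblast line from newborn mouse calvaria, grown in alpha-modified Eagle's medium with serum and formaldehyde, an aldehyde that binds DNA and proteins covalently. One group, FA_100, received formaldehyde at 100 µM and the other, FA_300, received it at 300 µM, with 1 RNA-seq library each. Untreated cells were not analysed here and the labels give no exposure time, so every comparison is between the higher and the lower dose, and between single libraries. No p-value was computed.

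IGF1 and IGF2 are small secreted peptides that osteoblasts both make and respond to, and both are stored in bone matrix. The IGF1 receptor is a tyrosine kinase that carries their growth and survival signal, whereas the IGF2 receptor, also the cation-independent mannose 6-phosphate receptor, takes IGF2 up for breakdown in lysosomes. The binding proteins hold IGFs outside the cell, and proteases release them.

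The binding proteins are built on a shared cysteine-rich amino-terminal domain, and the bases that code its signature are shown for the measured genes that carry it, because these relatives went in different directions between the doses. The signature searched was the stretch of 8 codons named after the family (glycine, cysteine, glycine, cysteine, cysteine, any, any, cysteine), in frame and on the coding strand only. It was found in 3 of the 5 measured binding protein genes, and is printed from the GENCODE M21 transcripts (GRCm38) with the cysteine codons in capitals.
Igfbp2: ggcTGCggcTGCTGCtccgtgTGC
Igfbp4: ggcTGCggtTGTTGCgccactTGC
Igfbp5: ggcTGTggcTGCTGCatgactTGC
These stretches lie at codons 67 to 74 of Igfbp2 (chromosome 1), 52 to 59 of Igfbp4 (chromosome 11) and 51 to 58 of Igfbp5 (chromosome 1). Igfbp2 and Igfbp5 share 17 of the 24 bases, and each shares 18 with Igfbp4. The letters were not found in the coding sequence of Igfbp6 (chromosome 15) or Igfbp7 (chromosome 5). Of 17062 coding transcripts searched, 1 per listed gene, 8 held the stretch (0.0469%). The others included the matricellular genes Ccn1, Ccn2, Ccn5 and Ccn6, whose products carry a domain of the same type. Of the 3 binding protein genes that share it, Igfbp2 and Igfbp4 stood higher at 300 µM and Igfbp5 lower, with the values given below.

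Levels are in FPKM as deposited, which divides the fragments of a gene by its transcript length and by the library's mapped fragments. Depth was estimated from the spacing of low values at about 18500000 fragments at 100 µM and 19400000 at 300 µM. Intervals given here are 95% Poisson or exact binomial intervals of the estimated reads and cover counting error only, not the spread between cultures. The line's label was checked on markers. Of 10 osteoblast markers, 9 had a mean of at least 1 FPKM, with Col1a1 at 2065 and 1714 FPKM. Of the 9, Alpl only just passed, at 0.98 and 1.06 FPKM, and Ibsp was low, at 1.83 and 1.77 FPKM. Bglap (osteocalcin), a late marker, was listed at 0 in the lower-dose library and at 0.49 FPKM in the other. The 5 endothelial markers summed to 0.16 and 0.10 FPKM, the 5 muscle markers to 0.33 and 0.55, the 5 osteocyte markers to 2.40 and 0.91, and 6 adipocyte markers to 5.47 and 2.65. The 7 macrophage and blood markers summed to 22.6 and 28.7 FPKM, with Adgre1 at 0 in both libraries. Of these markers Lyz2 was the highest and stood higher at 300 µM (13.2 and 26.5 FPKM). Cd14 (6.36 and 0.94 FPKM) and Cd68 (2.57 and 0.77 FPKM) stood lower there. Of 5 chondrocyte markers Acan and Matn1 were at 0 in both libraries, but Col2a1 stood at 322 and 350 FPKM and Sox9 at 61.4 and 9.78 FPKM. The part of these other markers in the results was not tested.

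Most IGF genes stood higher at 300 µM by less than 2-fold, and 1 binding protein gene stood lower by more than that. Each ratio is the log2 of FPKM plus 1 in the higher-dose library over the same sum in the lower-dose one, taken where a gene's mean reached 1 FPKM. All 9 genes passed that filter, Igfbp5 only through its level at 100 µM. At least 2-fold lower was 1 of the 9, Igfbp5, against 29.8% of the 10123 genes compared. At least 2-fold higher were 0 of the 9, against 6.09% of all genes. A ratio above 0 was found for 7 of the 9, against 40.4% of all genes, and the median of the 9 was 0.61, against -0.30 over all genes. With both libraries scaled to the same summed FPKM, 1 was lower, 0 were higher and 7 lay above 0, against 38.6%, 2.34% and 27.6% of all genes. After centring on the median gene, 0 were lower and 2 higher, against 22.3% and 14.5%. Nearest to the 2-fold size without reaching it were Igfbp7 and Igfbp2, with log2 ratios of 0.94 and 0.86, and Igfbp5 lay just past it at -1.08.

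**Figure D1:**
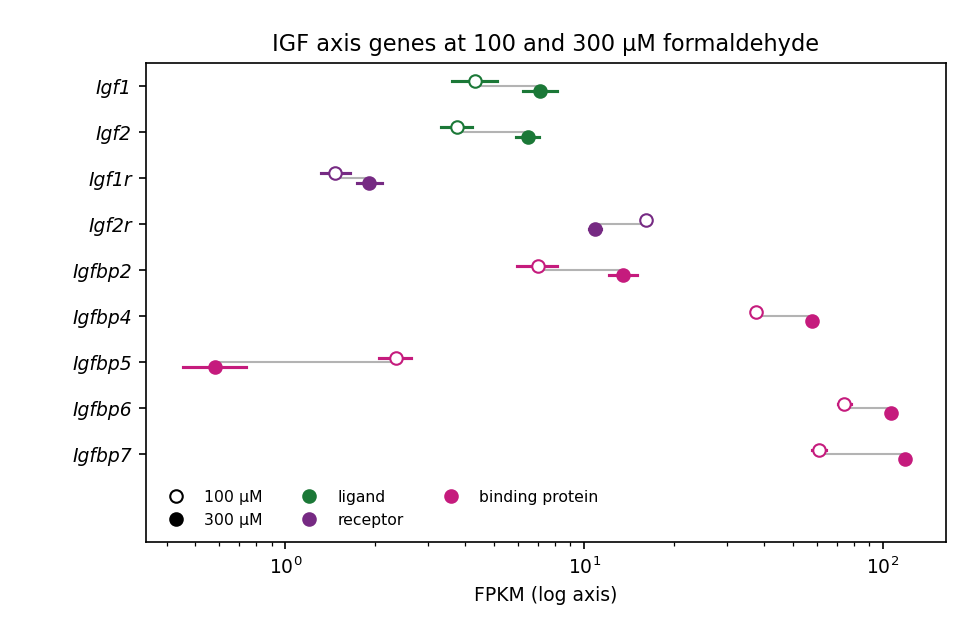
Level of each measured IGF gene in FPKM (log axis) in the single library at 100 µM (open circles) and at 300 µM (filled circles), coloured by role, with horizontal bars for the 95% counting interval. Igf2r and Igfbp5 are the 2 genes whose filled circle lies to the left of the open one.

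Both ligand genes were expressed at low levels and stood higher at 300 µM. Igf1 had 4.32 FPKM at the lower dose and 7.11 at the higher, which is 1.65-fold higher (interval 1.32 to 2.05, log2 ratio 0.61). Igf2 stood at 3.75 and 6.49 FPKM, 1.73-fold higher (1.49 to 2.01, log2 ratio 0.66). Igf1 over Igf2 was 1.15 at 100 µM and 1.10 at 300 µM, and the second divided by the first was 0.951, with a counting interval of 0.734 to 1.23 that includes 1. Such a ratio within a library does not depend on how the libraries were scaled, but it does depend on transcript length, with which dose ratios moved over the whole table. Less the median ratio of genes of like length, Igf1 stood at 0.46 and Igf2 at 1.26, which are not alike at the lengths assumed. Both genes carry a limit of annotation. The 8 coding transcripts of Igf1 run from 510 to 7052 bases. Its estimated 134 and 231 reads, and its value of 0.46, therefore depend on the length assumed (1673 bases). The like-length median was 0.15 there, whereas genes of 5000 to 8000 bases had a median of -0.99. For Igf2, 90.5% of the 50-base words of the transcript also occur in Gm49394, a predicted gene that overlaps Igf2 on the same strand.

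The receptor genes went in opposite directions. Igf1r, the signalling receptor, was the lowest of the 9 genes at 100 µM, at 1.47 FPKM, and stood at 1.91 FPKM at 300 µM. That is 1.30-fold higher (interval 1.12 to 1.51, log2 ratio 0.24), and with both libraries scaled to the same summed FPKM the log2 ratio was 0.00. Igf2r, the clearance receptor, had 16.1 FPKM at the lower dose and 10.9 at the higher, 1.48-fold lower (1.39 to 1.57, log2 ratio -0.52). Neither reached 2-fold, but the proportion of the receptors to each other shifted. Igf2r over Igf1r was 10.9 at 100 µM and 5.69 at 300 µM, a 1.92-fold smaller proportion (1.64 to 2.25). Both receptor genes have long transcripts, of 8887 bases for Igf2r and 11409 for Igf1r, so these modest levels rest on many reads, an estimated 2645 and 1876 for Igf2r and 311 and 423 for Igf1r.

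In summed FPKM, binding protein genes stood above ligand genes in both libraries by a like proportion. The 5 binding protein genes together had 182 FPKM at the lower dose and 297 at the higher, and the 2 ligand genes 8.07 and 13.6 FPKM. Binding protein over ligand was thus 22.6 at 100 µM and 21.8 at 300 µM. Like other ratios within a library it depends on transcript length, and no counting interval was computed for it. Less the median of genes of like length, Igf1 (at its assumed length) and Igf2 stood at 0.46 and 1.26. There Igfbp2, Igfbp4, Igfbp5, Igfbp6 and Igfbp7 stood at 0.54, 1.24, -0.05, 0.08 and 0.57. Igfbp6, Igfbp7 and Igfbp4 made up most of the binding protein sum, and the changes in share were moderate except for Igfbp5.

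Igfbp6, whose product binds IGF2 in preference to IGF1, and Igfbp7, whose product binds IGFs only weakly, were the most abundant of the 9 genes. Igfbp6 had 74.2 FPKM at the lower dose and 106 at the higher, 1.44-fold higher (interval 1.34 to 1.53, log2 ratio 0.52). Igfbp7 stood at 61.3 and 118 FPKM, 1.93-fold higher (1.81 to 2.06). Their order changed between the libraries: Igfbp7 over Igfbp6 was 0.826 at 100 µM and 1.11 at 300 µM, 1.34 times as large (1.23 to 1.47). Igfbp7 made up 33.6% of the binding protein sum at 100 µM and 39.8% at 300 µM, and Igfbp6 40.7% and 35.9%.

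Igfbp4, whose product inhibits IGF action until the protease PAPP-A cleaves it, came next in both libraries. It had 37.5 FPKM at the lower dose and 58.0 at the higher, 1.54-fold higher (interval 1.47 to 1.62, log2 ratio 0.61), and made up 20.6% and 19.5% of the sum. Relative to Igfbp6 it stood at 0.506 and 0.544, 1.08 times as large at 300 µM (0.992 to 1.17), an interval that includes 1. Their transcripts differ in length, and less the median of genes of like length Igfbp4 stood at 1.24 and Igfbp6 at 0.08.

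Igfbp2 and Igfbp5 went opposite ways. They are neighbours on chromosome 1, with no other protein-coding gene between them in the RefSeq annotation. Igfbp2, whose product carries IGFs in serum and tissue, had 6.99 FPKM at the lower dose and 13.5 at the higher, 1.93-fold higher (interval 1.60 to 2.33). Igfbp5, whose product is abundant in bone matrix and binds hydroxyapatite, had 2.34 FPKM at the lower dose and 0.58 at the higher, 4.03-fold lower (3.06 to 5.32). That fold is taken from the FPKM values directly, and the log2 ratio of -1.08 understates it because of the added 1. Igfbp2 over Igfbp5 was 2.99 at 100 µM and 23.3 at 300 µM, 7.79 times as large (5.63 to 10.8). Igfbp5 has the longer transcript. With the added 1, and less the median of genes of like length, Igfbp2 stood at 0.54 and Igfbp5 at -0.05. The share of Igfbp5 in the binding protein sum was 1.28% at 100 µM and 0.195% at 300 µM. It rests on an estimated 260 and 68 reads.

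**Figure D2:**
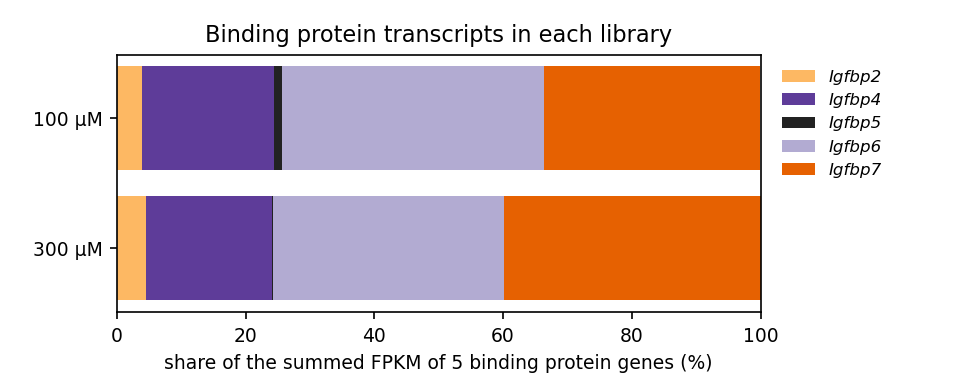
Share of each binding protein gene in the summed FPKM of the 5 measured binding protein genes (%), 1 bar per library. Igfbp7 takes 33.6% at 100 µM and 39.8% at 300 µM, while the thin Igfbp5 band goes from 1.28% to 0.195%.

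The order of levels was similar at both doses, read within each library. At 100 µM it ran Igfbp6, Igfbp7, Igfbp4, Igf2r, Igfbp2, Igf1, Igf2, Igfbp5 and Igf1r. At 300 µM Igfbp7 stood above Igfbp6, Igfbp2 above Igf2r, and Igf1r above Igfbp5, with the other places as before. Only the neighbours Igf1 and Igf2 could not be told apart by their counting intervals, which were 3.62 to 5.12 and 3.32 to 4.22 FPKM at 100 µM, and 6.22 to 8.09 and 5.93 to 7.08 FPKM at 300 µM. Among all listed genes, 93.9% stood lower than Igfbp6 at 100 µM and 95.6% lower than Igfbp7 at 300 µM, whereas 43.4% and 52.5% stood lower than Igf1r.

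Transcript length moved with the dose ratio over the whole table, and the IGF genes span most of its range. Among all genes compared with a transcript under 1000 bases (613 genes) the median log2 ratio was 0.70, and among those of at least 8000 bases (415 genes) it was -1.08. Over 10093 genes, none of them a replicate of another, log10 length and log2 ratio had a Pearson's r of -0.39 and a Spearman's rho of -0.41. Across the 9 IGF genes r was -0.66 and rho -0.62, over points that share the same 2 libraries. The part of length in the ratios was not tested.

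Set against genes of like length, the IGF genes looked different from the plain ratios. The running median over the 500 genes nearest in length was subtracted from each ratio. After that 8 of the 9 genes lay above 0, against 50% of all genes by construction, with 3 at least 2-fold higher and 0 lower, against 11.6% and 18.2% of all genes. The 3 were Igf1r, Igf2 and Igfbp4, and the place of Igf1 outside them rests on the length assumed for it. Igf1r, whose plain ratio of 0.24 was small, stood 1.38 above genes of its length, whose median was -1.14. Igf2 stood 1.26 above and Igfbp4 1.24 above, with medians of -0.61 and -0.62 for genes of their lengths (3970 and 3831 bases).

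Igf2r turned direction in that comparison, and Igfbp5 lay near the median for its length with 1 FPKM added. Igf2r lay 0.52 above genes of like length, whose median was -1.05, although its own ratio was -0.52. Igfbp5, with a transcript of 6006 bases, lay at -0.05 from a median of -1.03. That nearness depends on the added 1. With 0.1 FPKM added instead, the log2 ratio of Igfbp5 was -1.84, while the median of all genes was -0.34. Its distance from genes of like length was not computed at that setting. The short transcripts of Igfbp6 and Igfbp7, of 1112 and 1200 bases, lay 0.08 and 0.57 above genes of like length. Igfbp2 (1307 bases) and Igf1 (at the 1673 bases assumed) lay 0.54 and 0.46 above. Igf1r, Igfbp5, Igf2 and Igfbp4 all carry long 3' untranslated regions in the annotation, of 7267, 4445, 3047 and 2813 bases, and of these 4 genes Igfbp5 alone stood lower at 300 µM.

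**Figure D3:**
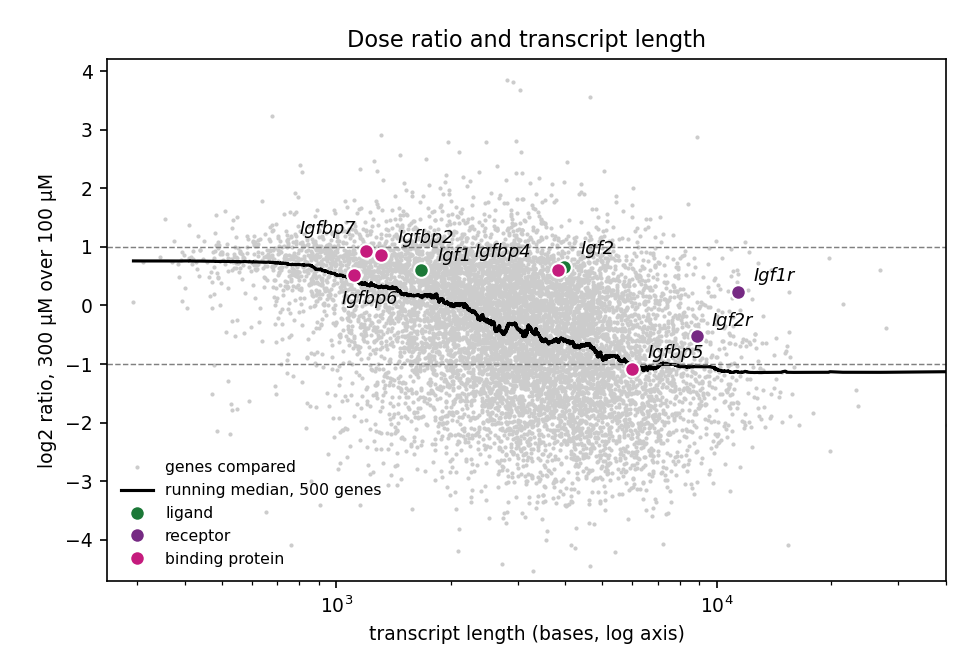
Log2 ratio of 300 µM over 100 µM against transcript length (bases, log axis) for each gene compared (grey), with the running median of 500 genes (black), 2-fold lines (dashed) and the IGF genes coloured by role. With 1 FPKM added to each level, Igf1r, Igf2 and Igfbp4 lie more than 1 unit above the black line, and Igfbp5 lies on it.

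The other genes of the extracellular IGF axis differed among themselves. Of 17 such genes listed, 14 were in the tables and 8 had a mean of at least 1 FPKM, of which 3 were at least 2-fold lower and 1 higher (median -0.48), against 29.8% and 6.09% of all genes. Less the median of genes of like length 1 was lower and 0 were higher, and the list's median turned to 0.47, with 5 of the 8 above 0. Over all genes that comparison gave 18.2% lower, 11.6% higher and 50% above 0. Furin, the convertase that matures the IGF1 receptor precursor, had 34.0 FPKM at the lower dose and 3.49 at the higher, 9.73-fold lower (log2 ratio -2.96), and was the 1 gene still counted lower, at -2.26 less the length median. Pappa2, a protease that cleaves IGFBP5 and IGFBP3, stood at 41.3 and 18.6 FPKM, 2.23-fold lower (2.14 to 2.32). Its log2 ratio of -1.11 was close to the median of -1.05 for genes of its length (9518 bases), as that of Igfbp5 was to its own, and it did not reach 2-fold after centring on the median gene.

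Related proteases and their inhibitors did not reach 2-fold or were barely expressed. Pappa, which encodes the protease PAPP-A for IGFBP4, stood at 1.46 and 0.94 FPKM (log2 ratio -0.34), and Htra1, a serine protease that cleaves binding proteins, at 6.17 and 10.1 FPKM (0.62). The stanniocalcin genes Stc1 and Stc2, whose products inhibit PAPP-A, were at 0 in both libraries and at 0 and 0.03 FPKM. Receptors for other members of the axis differed among themselves. Lrp1, a large endocytic receptor that also binds IGFBP3, stood at 46.0 and 20.3 FPKM (log2 ratio -1.14, with a median of -1.13 for genes of its length), and Tmem219, another IGFBP3 receptor, at 11.4 and 28.2 FPKM (1.24). The insulin receptor gene Insr was near the level of Igf1r at 100 µM, with 1.66 FPKM, and stood at 0.74 FPKM at 300 µM.

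Genes whose products bind IGF transcripts, or that belong to the same imprinted group, gave 4 of 10 compared at least 2-fold lower and 0 higher (median -0.37), against 29.8% and 6.09% of all genes. Less the median of genes of like length 2 were lower and 1 higher, and the list's median turned to 0.19, with 6 of the 10 above 0. The shares of all genes there were 18.2% lower, 11.6% higher and 50% above 0. Igf2bp1, whose product binds the Igf2 messenger RNA, stood at 8.46 and 2.55 FPKM (log2 ratio -1.41). Less the length median Igf2bp1 stood at -0.37, short of 2-fold, and Hmga2 at -1.55. The plain log2 ratios of Igf2bp2 and Igf2bp3, relatives of Igf2bp1, were -0.04 and -0.52. Hmga2, a chromatin protein gene that drives Igf2bp2 in mouse muscle precursors, stood at 25.8 and 4.99 FPKM, 5.16-fold lower (interval 4.61 to 5.81). Igf2bp2 itself had 2.83 and 2.72 FPKM, a ratio of 0.961 with a counting interval of 0.790 to 1.17.

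Among the imprinted genes, Plagl1, a transcription factor of the imprinted gene network, and Peg10 were lower at 300 µM. Plagl1 stood at 37.1 and 12.2 FPKM (log2 ratio -1.53) and Peg10 at 5.12 and 0.48 FPKM (-2.05). Less the length median Plagl1 stood at -0.67, short of 2-fold, and Peg10 lay on the 2-fold line. Peg10 passed the filter only through its level at 100 µM. Mest, like Igf2 expressed from the paternal allele, stood at 36.1 and 33.3 FPKM, and Sgce at 43.6 and 78.5 FPKM (0.83). Igf2 and Igf2r, themselves imprinted in mouse, had 0.66 and -0.52. The H19 gene near Igf2 was not analysed here.

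Downstream of the IGF1 receptor, the docking protein genes Irs1 and Irs2 had the lowest log2 ratios of the signalling genes compared. The ratio of the receptor gene Igf1r was 0.24. Of 54 signalling genes listed, 50 were compared, of which 21 were at least 2-fold lower and 2 higher (median -0.60, against 0.61 for the IGF genes and -0.30 for all genes). The shares over all genes were 29.8% and 6.09%. Of the 21, 6 passed the filter only through their level at 100 µM, namely Sos1, Sos2, Pik3cb, Pik3r1, Phlpp2 and Rictor. The same held for 729 of the 3020 lower genes among all genes compared. Less the median of genes of like length the counts were 5 lower and 4 higher, against 18.2% and 11.6% of all genes, so the larger share of lower genes was not seen there. Irs1 and Irs2, which couple the receptor to PI3-kinase, stood at 14.9 and 1.63 FPKM and at 13.6 and 1.10 FPKM. These are 9.17-fold (interval 8.12 to 10.4) and 12.3-fold (10.4 to 14.8) lower. Less the length median their log2 ratios were -1.55 and -1.74. Ptpn1, a phosphatase that switches the receptor off, followed with a log2 ratio of -2.36. Less the length median Ptpn1 stood at -1.67, below Irs1, so Irs1 and Irs2 were not the lowest pair in that comparison.

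Akt1, a kinase further along, differed little by comparison. It stood at 123 and 156 FPKM (log2 ratio 0.34). The 2 genes at least 2-fold higher were Rptor, a subunit of mTOR complex 1, at 1.60 and 5.56 FPKM, and Mapk3 (ERK1), at 55.4 and 118 FPKM. Foxo3, a transcription factor that AKT holds inactive, stood at 15.2 and 4.25 FPKM (-1.63), and the inhibitory adaptor Grb10 at 23.5 and 19.9 FPKM (-0.23). Less the median of genes of like length, Rptor stood at 2.42, Akt1 at 0.72 and Grb10 at 0.69. Mapk3 and Foxo3 stood at 0.94 and -0.55 in that comparison and no longer reached 2-fold. Foxo1, at 1.75 and 0.14 FPKM, did not reach the mean compared. These signalling genes had a median transcript length of 4951 bases, and their median after subtracting that of genes of like length was -0.06, against 0.54 for the 9 IGF genes.

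**Figure D4:**
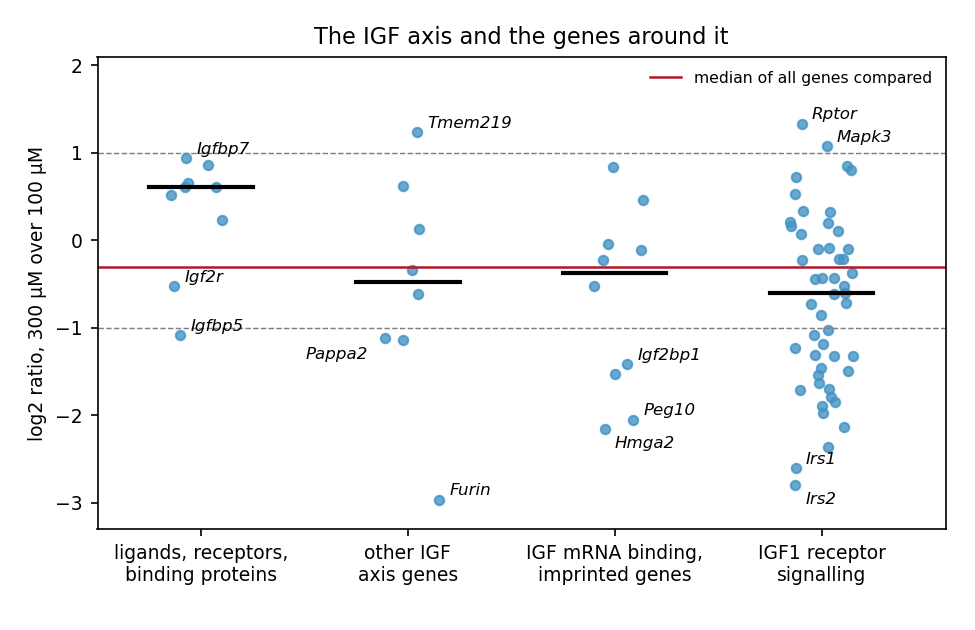
Log2 ratio of 300 µM over 100 µM for the genes compared in 4 lists (points), with each list's median (black bars), the median of all genes compared (red line) and 2-fold lines (dashed). The IGF genes have a median of 0.61 and the signalling genes one of -0.60, with Irs1 and Irs2 at the bottom of that list.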

How the data were processed

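RNA-seq of 2 libraries was analysed, 1 per dose. The authors deposited 1 table of FPKM values per library, per the file headers. Per the submitters' processing notes, the tools were Bowtie2 and RSEM, with no version. The build is not given in the sources used here, and there are no genome positions. FPKM is relative to the library total, and RSEM divides reads among isoforms and overlapping genes. Symbols came from RefSeq (GRCm38) for 17179 of 17215 genes. Transcript lengths came from GENCODE M21, 1 coding transcript per gene where available, for 10093 of the 10123 genes compared.

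Log2 ratios used a pseudocount of 1 FPKM and a minimum mean of 1 FPKM, with 2-fold as the size counted. Depth was the step of FPKM times length at which most low values came to within 0.12 of whole reads (62.8% of 121 values at 100 µM and 64.1% of 92 at 300 µM). Reads per gene, and their 95% intervals (Poisson for levels, exact binomial for folds, normal on the log scale for a ratio of ratios), follow from it. Without molecular identifiers, reads may be copies of 1 molecule. Simulated data were used to check the log2 ratios and fold counts only, not the depth estimate, the reads or the intervals.

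The genes and lists were chosen with earlier results of these data known. All IGF genes, and any gene of the axis and imprinting lists, may be named. Of the signalling list, the 4 lowest and up to 4 highest past 2-fold and 8 set genes may be named. Some genes this rule takes are not reported here. With 2 libraries, genes were not ranked by likeness of pattern. Alternatives were pseudocounts of 0.1 and 5, other filters, scalings and fold sizes, and a correction for length. The software was scipy 1.17.1, pandas 2.3.3, matplotlib 3.10.9 and numpy 2.4.6 under Python 3.11.15.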

Additional observations from a re-analysis of the deposited data

How the results depend on the processing

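With 1 library per dose no replicate could be left out, and no paired analysis was possible because the groups share no replicates. Scaling shifts every ratio: the median of all genes was -0.30 as deposited, 0.00 when centred, 0.05 with a TMM factor and -0.63 with equal summed FPKM. The direction of 8 of the 9 IGF genes held in all settings in which they were compared; Igf2r turned to 0.52 less the median of like length. The median of the IGF genes was 0.91 when centred, 0.96 with TMM, 0.25 with equal sums, 0.54 less the length median, 0.63 and 0.39 with pseudocounts of 0.1 and 5, and 0.61 over the 5 genes that reached a mean of 10 FPKM.

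Igfbp5 no longer counted as 2-fold lower, leaving 0 IGF genes lower, when centred (-0.78), with TMM (-0.92), with a pseudocount of 5 (-0.40), less the length median (-0.05), at 3-fold, and at a mean of 10 FPKM, where it was not compared. Of the 9 IGF genes, those counted as higher were 2 when centred, 4 with TMM, 3 less the length median and 5 at 1.5-fold. Over all genes, those higher were 1472 when centred, 1734 with TMM, 237 with equal sums, 1173 less the length median, 258 with a pseudocount of 5, 358 at a mean of 10 FPKM, 1901 at 1.5-fold and 123 at 3-fold. Those lower were 2261 when centred, 2289 with TMM, 1833 less the length median, 1630 with a pseudocount of 5, 1141 at a mean of 10 FPKM and 1653 at 3-fold. These counts are out of 5340 genes at a mean of 10 FPKM, 10093 less the length median and 10123 in the other settings given here. A smaller count at a mean of 10 FPKM is therefore not by itself a smaller share.

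Among other axis genes, 1 was lower when centred, with TMM, less the length median and at 3-fold, and those higher were 0 with equal sums, less the length median and at 3-fold, and 2 at 1.5-fold. Among mRNA binding and imprinted genes, 2 were lower less the length median, with a pseudocount of 5, at a mean of 10 FPKM and at 3-fold, and 1 was higher when centred, with TMM, less the length median and at 1.5-fold. Signalling genes lower were 5 less the length median, 9 with a pseudocount of 5, 6 at a mean of 10 FPKM and 11 at 3-fold. In each of these lists fewer genes were compared at a mean of 10 FPKM. Signalling genes higher were 5 when centred, with TMM and at 1.5-fold, 4 less the length median, 1 with equal sums, a pseudocount of 5 and a mean of 10 FPKM, and 0 at 3-fold. The causes were not tested.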
